A study of Mus musculus with 28 samples.

Results

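The 6 genes described here, Otx2, Pou3f1, Fgf5, Lef1, Sall2 and Cdh2, are genes of the formative epiblast, the state that embryonic stem cells enter as they leave naive pluripotency. They were chosen by name, with earlier results of these data known, and are 6 of 21887 protein-coding genes on the assembled mouse chromosomes. For each gene, every consensus region of H3.3 and of H3K27ac (acetylation of lysine 27 of histone H3) in the gene body plus 100 kb either side was collected, in coordinates of the mouse build mm10. This gave 15 of the 5446 H3.3 regions and 48 of the 57857 H3K27ac regions of the series. The libraries were CUT&RUN, in which an antibody guides a tethered nuclease to its target in nuclei and the released DNA is sequenced. All came from the male mouse embryonic stem cell line ES-E14TG2a (E14), and 28 libraries covered 4 targets (K27ac, K122ac, H3.3 and no antibody), with 7 libraries for each. The genotypes were Wildtype (2 libraries per target), H3f3a_AA_H3f3b_WTWT (1), H3f3a_WTWT_H3f3b_AA (1), H3f3a_AA_H3f3b_WTA (2, from 2 clones) and H3f3a_WTA_H3f3b_AA (1), where A stands for an H3.3 allele with lysine 122 changed to alanine as the series title names it. The labels describe both a medium with LIF and one with LIF and inhibitors of GSK3 and MEK, and do not say which the libraries came from.

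Each consensus region is a position only. The lists hold no height and no value per library, so no genotype could be compared with another, the depth is unknown, no spread between replicates can be given for any count, and no difference was tested. A region does not tell whether all cells or some of them carried the mark, nor in which genotype it was found. The counts for the 6 genes are therefore set beside the same count over all protein-coding genes as a description. The labelled cell type was checked at gene ends, where a gene end means up to 1 kb on each side of the annotated start or stop of the gene and a region counts if it shares at least 1 bp with it. H3K27ac lay at a gene end of 5 of 5 embryonic stem cell markers (Pou5f1, Sox2, Nanog, Zfp42 and Esrrb), of 0 of 5 primitive endoderm markers and of 1 of 5 fibroblast markers, that 1 being Thy1 with a region of 213 bp. The share over all protein-coding genes was 38.8%, so counts of 0 or 1 of 5 are a weak check. For H3.3 alone that share was 5.31%. H3.3 alone lay at an end of 3 of the 5 primitive endoderm markers (60%), which were Gata6 (4249 bp), Sox17 (2186 bp) and Pdgfra (3531 bp), and of 0 of the 5 embryonic stem cell markers.

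Naive embryonic stem cells correspond to the preimplantation epiblast. On the way to germ layer differentiation they pass through a formative state in which naive factors are switched off and a new set of transcription factors, signals and adhesion molecules is switched on. H3.3 is the histone H3 variant that is placed into chromatin outside DNA replication, at active genes and also at the promoters of silent developmental genes. H3K27ac marks active promoters and enhancers.

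H3.3 was found at an end of 5 of the 6 genes, and H3K27ac at the ends of none of them. An H3.3 region lay at a gene end of 5 genes (Otx2, Pou3f1, Fgf5, Lef1 and Cdh2), against 16% of all protein-coding genes. The sixth gene, Sall2, had its H3.3 region at an internal start site. H3K27ac lay at a gene end of 0 of the 6, against 38.8% of all protein-coding genes. H3.3 at an end together with no H3K27ac at either end was thus the state of 5 of the 6, and of 5.31% of all protein-coding genes. It was not particular to these genes, since the primitive endoderm genes named above had it too. Inside the gene body 5 of the 6 had an H3.3 region (16.1% of all genes) and 1, Cdh2, had H3K27ac regions (48.4% of all genes). When the body was extended by 1 kb, H3.3 was present at 6 of 6 (19.6% of all genes), H3K27ac at 1 of 6 (50.8%), and H3.3 without H3K27ac at 5 of 6 (4.61%).

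**Figure D1:**
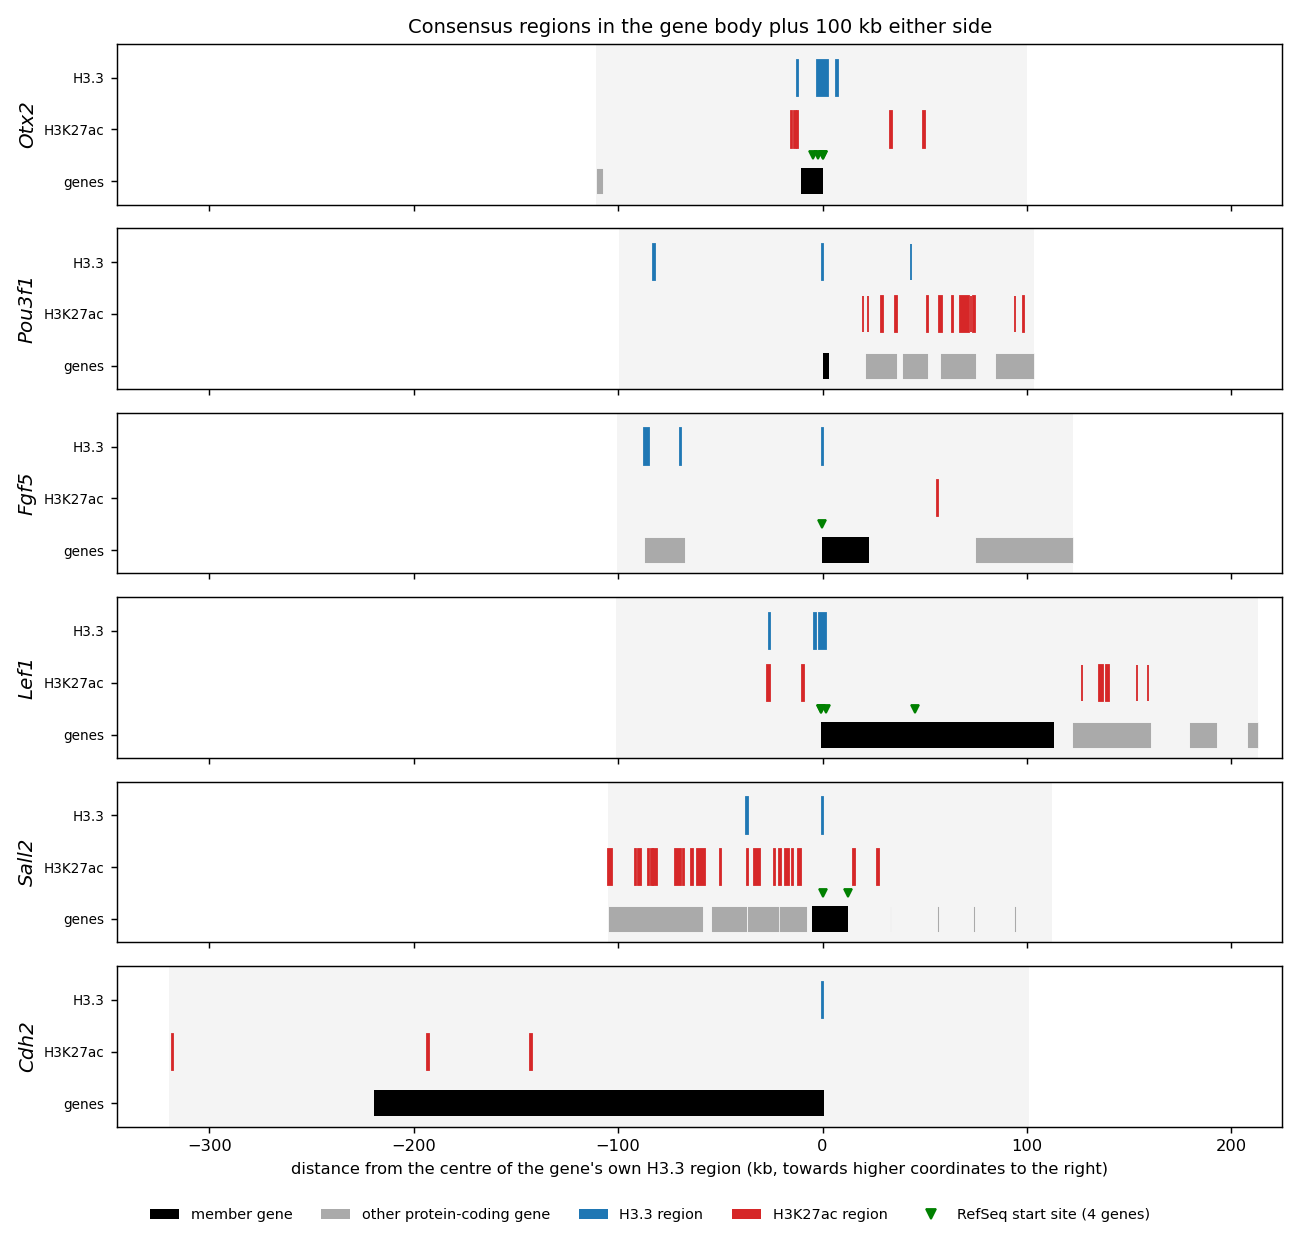
Map of the 6 gene windows (grey background), with distance in kb from the centre of the H3.3 region at each gene, H3.3 regions in blue, H3K27ac regions in red, the named gene in black, other protein-coding genes in grey and start sites as green triangles. Regions are to scale with a thin outline that keeps narrow ones visible. Of the 6 black gene bars, only that of Cdh2 has red H3K27ac regions over it.

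Otx2, Lef1, Sall2 and Fgf5 have start sites in the RefSeq promoter table, so their starts with and without an H3.3 region could be told apart by position. A start site counted as carrying a mark if a region touched the 300 bases from 250 before to 50 after it. Of their 11 start sites, 8 touched an H3.3 region and 0 an H3K27ac region, against 11.8% and 22.2% of 21263 start sites of protein-coding genes. In Otx2, and again in Lef1, the 3 starts with H3.3 lay at 1 region, so the 8 are not separate observations. Otx2, Lef1 and Sall2 have more than 1 start site, and in each of the 3 genes H3.3 was at some start sites and not at others. Of 559 genes with 2 or more start sites and H3.3 at one of them, 63.5% were of this kind. The 250 bases upstream are printed below for start sites with H3.3 and, in the same genes, for those without it, 5′ to 3′ on the gene's own strand, with CG dinucleotides in capitals. They are RefSeq sequences of the build GRCm38.p6, the reference strain C57BL/6J, and were not read from the E14 libraries.
Otx2 first start, with H3.3 (chr14:48667645-48667894, minus strand): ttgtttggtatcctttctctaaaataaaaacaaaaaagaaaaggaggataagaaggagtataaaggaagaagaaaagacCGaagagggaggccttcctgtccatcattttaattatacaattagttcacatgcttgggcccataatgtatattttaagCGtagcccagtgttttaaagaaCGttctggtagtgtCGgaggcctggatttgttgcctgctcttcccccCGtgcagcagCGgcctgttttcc
Otx2 last start, without H3.3 (chr14:48662735-48662984, minus strand): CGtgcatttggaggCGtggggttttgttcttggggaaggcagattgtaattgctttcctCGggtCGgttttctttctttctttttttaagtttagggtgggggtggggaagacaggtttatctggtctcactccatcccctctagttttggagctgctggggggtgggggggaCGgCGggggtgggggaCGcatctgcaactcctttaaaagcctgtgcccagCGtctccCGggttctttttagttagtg
Lef1 first start, with H3.3 (chr3:131110047-131110296, plus strand): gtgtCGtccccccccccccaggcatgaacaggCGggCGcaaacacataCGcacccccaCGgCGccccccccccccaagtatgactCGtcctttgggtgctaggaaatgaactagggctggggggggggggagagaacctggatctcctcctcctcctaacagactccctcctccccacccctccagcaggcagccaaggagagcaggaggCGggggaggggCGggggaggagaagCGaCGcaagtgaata
Lef1 last start, without H3.3 (chr3:131156044-131156293, plus strand): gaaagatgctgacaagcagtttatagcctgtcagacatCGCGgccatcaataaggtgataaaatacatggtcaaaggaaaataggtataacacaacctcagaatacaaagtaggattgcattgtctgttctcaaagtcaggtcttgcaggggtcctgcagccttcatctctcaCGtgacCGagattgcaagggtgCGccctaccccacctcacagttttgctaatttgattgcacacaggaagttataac
Sall2 first start, without H3.3 (chr14:52328671-52328920, minus strand): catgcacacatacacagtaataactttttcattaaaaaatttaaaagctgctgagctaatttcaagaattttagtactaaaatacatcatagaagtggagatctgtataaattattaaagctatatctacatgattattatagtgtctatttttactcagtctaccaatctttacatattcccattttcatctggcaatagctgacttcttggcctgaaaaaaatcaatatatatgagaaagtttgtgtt
Sall2 internal start, with H3.3 (chr14:52316324-52316573, minus strand): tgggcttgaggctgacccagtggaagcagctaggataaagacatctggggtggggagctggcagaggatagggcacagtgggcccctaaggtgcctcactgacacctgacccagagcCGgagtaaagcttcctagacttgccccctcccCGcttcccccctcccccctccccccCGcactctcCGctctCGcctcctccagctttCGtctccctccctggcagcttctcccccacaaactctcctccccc
Fgf5 start, next to H3.3 (chr5:98253934-98254183, plus strand): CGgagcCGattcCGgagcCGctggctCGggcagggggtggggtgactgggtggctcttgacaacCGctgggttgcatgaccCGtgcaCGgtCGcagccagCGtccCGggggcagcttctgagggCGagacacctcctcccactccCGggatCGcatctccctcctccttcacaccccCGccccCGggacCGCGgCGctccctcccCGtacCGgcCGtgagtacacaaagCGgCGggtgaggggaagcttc

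The Sall2 pair differed most in base composition. The upstream sequence of its first start held 0 CG dinucleotides at 28.0% G and C, and that of the internal start with H3.3 held 6 at 64.4%. In Lef1 the first start with H3.3 held 11 CG dinucleotides and the fourth, without it, 5. Otx2 ran the other way, with 6 at the first start and 9 at the fourth, and the third of its starts, which lies in the same H3.3 region as the first, held 14. The Fgf5 start held the most of the 11, 24 at 70.8% G and C. Over all protein-coding genes the median was 18 at the 2508 start sites with H3.3 (interquartile range 13 to 22) and 8 at the 18755 without (2 to 18). Of the 8 member start sites with H3.3 only that of Fgf5 was above the median of 18. The Fgf5 region began 28 bp after the start and covered 22 of the 300 bases, so the upstream bases counted lay outside it. At the other member starts with H3.3 all 300 bases were covered.

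**Figure D2:**
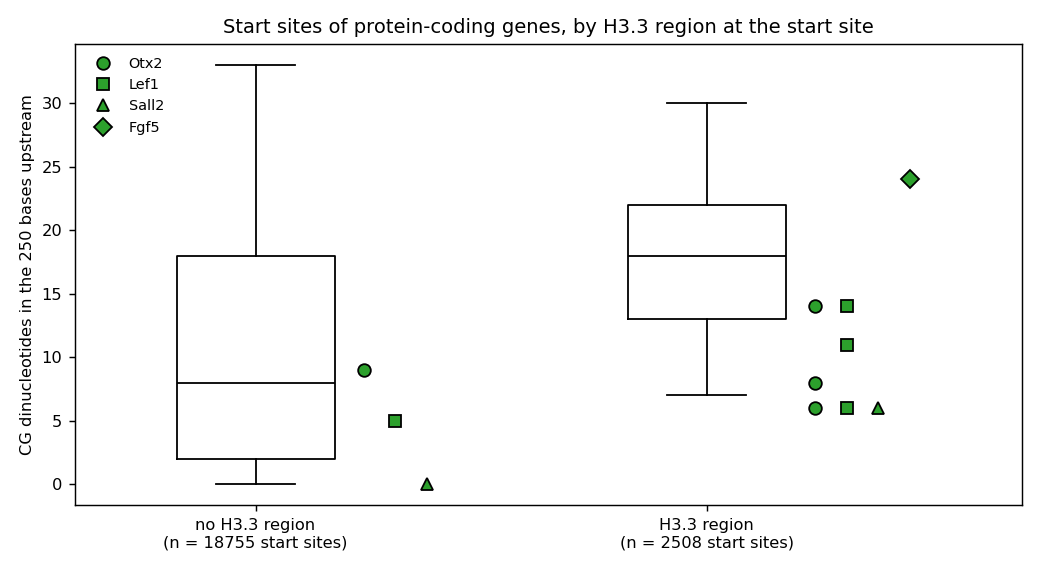
Number of CG dinucleotides in the 250 bases upstream of start sites without and with an H3.3 region, for all protein-coding genes (boxes show the interquartile range and median, whiskers the 5th and 95th percentiles) and for each start site of Otx2, Lef1, Sall2 and Fgf5 (green symbols). Fgf5, at 24, is the only green symbol above the median of 18 of the start sites with H3.3, and the first start of Sall2 lies at 0. The H3.3 region of Fgf5 begins 28 bp after its start site.

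The same 250 bases were searched on both strands for 4 short motifs of factors tied to these genes. The core bound by TCF and LEF factors, CTTTGA, was present upstream of the fourth start of Lef1 and of no other of the 11, against 12.7% of all start sites. The OTX-type homeodomain motif TAATCC was present upstream of the third start of Otx2 alone (5.82% of all). The POU octamer ATTTGCAT was in none of the 11 (1.58% of all). The GC box GGGCGG was upstream of Fgf5 and of the first 3 starts of Lef1 (42.6% of all start sites, 65.3% of those with H3.3). The first and the second start of Lef1 lie so close that their upstream sequences overlap. No start site of these genes held 2 different motifs of the 4. A match is a run of letters and not a bound site.

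Otx2 (chr14:48656781-48667644, minus strand) encodes a homeodomain transcription factor of the formative epiblast and later of the anterior brain. It had the widest H3.3 region of the 6, 5078 bp at chr14:48664855-48669932. The region covered the first 3 of its 4 start sites and reached 2288 bp beyond the gene, into the long noncoding RNA gene Otx2os1. It was wider than 99.0% of all H3.3 regions. The fourth start lay 2121 bp outside it. A further H3.3 region of 1037 bp (chr14:48673836-48674872) lay 6.2 kb upstream, inside Otx2os1. The other H3.3 region of the window measured 573 bp (chr14:48654809-48655381), lay 1.4 kb past the far end of Otx2, and shared 558 bp, or 97.4% of its length, with an H3K27ac region of 612 bp.

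No H3K27ac region around Otx2 lay inside the gene. The share of its window covered was 1.88%, above that of 40.5% of all protein-coding genes. Its 5 H3K27ac regions covered 3955 bp. Of these, 3 formed a group past the far end of the gene, at 1.3, 2.5 and 4.3 kb from it, with widths of 612, 899 and 421 bp. The other 2, of 1160 and 863 bp, lay 32.6 and 49.0 kb upstream within Otx2os1. The wide H3.3 region at the start was 9.4 kb from the nearest H3K27ac region. Otx2 was the nearest protein-coding gene to all 3 H3.3 and all 5 H3K27ac regions of its window.

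Pou3f1 (chr4:124657646-124660655) encodes the POU-domain factor OCT6, which binds octamer sites and becomes expressed in the formative epiblast. Its H3.3 region was the narrowest of the 6 at a gene, 456 bp at chr4:124657026-124657481, and ended 165 bp below the lower annotated end of Pou3f1, below meaning towards lower coordinates. The long noncoding RNA gene Gm2164 overlaps it, with its upper annotated end there. Another region of 638 bp (chr4:124574518-124575155) lay 82.5 kb away within Gm2164, and the third, of 255 bp, lay 39.7 kb above the gene, where Fhl3 was nearest. None of these 3 touched H3K27ac.

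All H3K27ac in the Pou3f1 window lay on 1 side, over or beside its neighbours. The 12 regions began 16.3 kb above the gene and covered 11053 bp, and 0 lay below the gene. The nearest protein-coding gene was Utp11 for 4 of them, Fhl3 for 1, Sf3a3 for 5 and Inpp5b for 2, and Pou3f1 for none. The widest, 4011 bp (chr4:124724659-124728669), lay inside Sf3a3, a splicing factor gene. Utp11, Fhl3, Sf3a3 and Inpp5b each had H3K27ac at a gene end.

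Fgf5 (chr5:98254184-98277033, plus strand) encodes a secreted fibroblast growth factor that is a standard marker of the epiblast after the naive state. Its H3.3 region of 623 bp (chr5:98254212-98254834) began 28 bp after the start site and ran into the gene. The other 2 H3.3 regions of the window, of 2721 bp (chr5:98166974-98169694) and 457 bp, lay 84.5 and 68.8 kb away, at and within the neighbour Prdm8. Prdm8 encodes a PR-domain regulator of neural development, and it too had H3.3 and no H3K27ac at its ends. Fgf5 had the fewest H3K27ac regions of the 6, a single region of 480 bp (chr5:98310568-98311047) that lay 33.5 kb past its far end and nearer to Cfap299. From the H3.3 region at the start it was 55.7 kb away.

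Lef1 (chr3:131110297-131224357, plus strand) encodes a DNA-binding partner of beta-catenin that turns WNT signals into transcription. Its H3.3 region of 3559 bp (chr3:131109463-131113021) ran from 834 bp before the gene to 2725 bp inside it and covered the first 3 of 4 start sites. It was wider than 97.9% of all H3.3 regions. The fourth start, 43273 bp from it, had neither mark. A second H3.3 region of 1273 bp (chr3:131106925-131108197) lay 2.1 kb upstream, at the noncoding RNA gene Gm36603. The third, 389 bp, lay 24.9 kb upstream wholly inside an H3K27ac region of 1377 bp (chr3:131084192-131085568).

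No H3K27ac region lay in the 114.1 kb body of Lef1. The window held 7, covering 6760 bp. Of these, 2 lay upstream at 8.1 and 24.7 kb, and Lef1 was their nearest protein-coding gene. The other 5 lay past the far end, over the neighbour Hadh, a fatty acid oxidation enzyme gene, between 13.6 and 46.0 kb from Lef1, and the widest of the window, 2115 bp, was among them. The distance from the wide H3.3 region to the nearest H3K27ac region was 7.3 kb, the shortest of the 6.

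Sall2 (chr14:52311177-52328670, minus strand) encodes a zinc finger transcription factor of the spalt family. Its H3.3 region of 850 bp (chr14:52315891-52316740) covered all 300 bases around the internal start, and lay 4714 bp from the nearer annotated end of the gene. The first start was 11930 bp from any H3.3 region. The second H3.3 region of the window, 735 bp (chr14:52279066-52279800), lay 31.4 kb away where the neighbours Rab2b and Tox4 overlap, and it shared 627 bp with an H3K27ac region of that size.

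Sall2 had the most H3K27ac regions in its window and none in its body. The 20 H3K27ac regions covered 28172 bp, and 18 of them lay past the far end of the gene, over or beside Chd8, Rab2b, Tox4 and Mettl3. All 4 of these neighbours had H3K27ac at a gene end. The widest, 3883 bp (chr14:52254916-52258798), lay at Chd8, a chromatin remodeller gene. The other 2 lay 2.7 and 14.2 kb upstream of the first start, with 662 and 1207 bp, towards 4 olfactory receptor genes that had neither mark at their ends. Sall2 was the nearest protein-coding gene to 1 of the 20.

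Cdh2 (chr18:16588877-16809246) encodes N-cadherin, the adhesion molecule that cells take up as they give up E-cadherin, and it is the longest of the 6 genes at 220.4 kb. Its window held 1 H3.3 region, 764 bp (chr18:16808040-16808803), inside the gene and 443 bp from its upper annotated end. The 3 H3K27ac regions were narrow. Those of 903 bp (chr18:16614927-16615829) and 886 bp (chr18:16665517-16666402) lay inside the gene, and that of 441 bp lay 98.2 kb below it. Cdh2 was the only protein-coding gene in its window. The H3.3 region was 141.6 kb from the nearest H3K27ac region, the longest distance of the 6.

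The H3.3 region at each gene lay at least 7.3 kb from any H3K27ac region. For this comparison the widest H3.3 region in the gene body or within 1 kb of it was taken. None of the 6 touched an H3K27ac region, as was the case for 47% of the 4300 protein-coding genes with such a region. Their distances had a median of 14.7 kb, from 7.3 kb at Lef1 to 141.6 kb at Cdh2, with 9.4 kb at Otx2, 10.0 kb at Sall2, 19.4 kb at Pou3f1 and 55.7 kb at Fgf5. The 1010 genes with H3.3 and without H3K27ac over the same span had a median of 43.2 kb. Of the 6, Cdh2 was not among these 1010, since it had 2 H3K27ac regions in its body. The medians of the 6 include it. The widths of the 6 had a median of 807 bp, against 486 bp for the 4300 genes and 681.5 bp for the 1010. Otx2 and Lef1 stood above the other 4, whose widths ran from 456 to 850 bp.

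**Figure D3:**
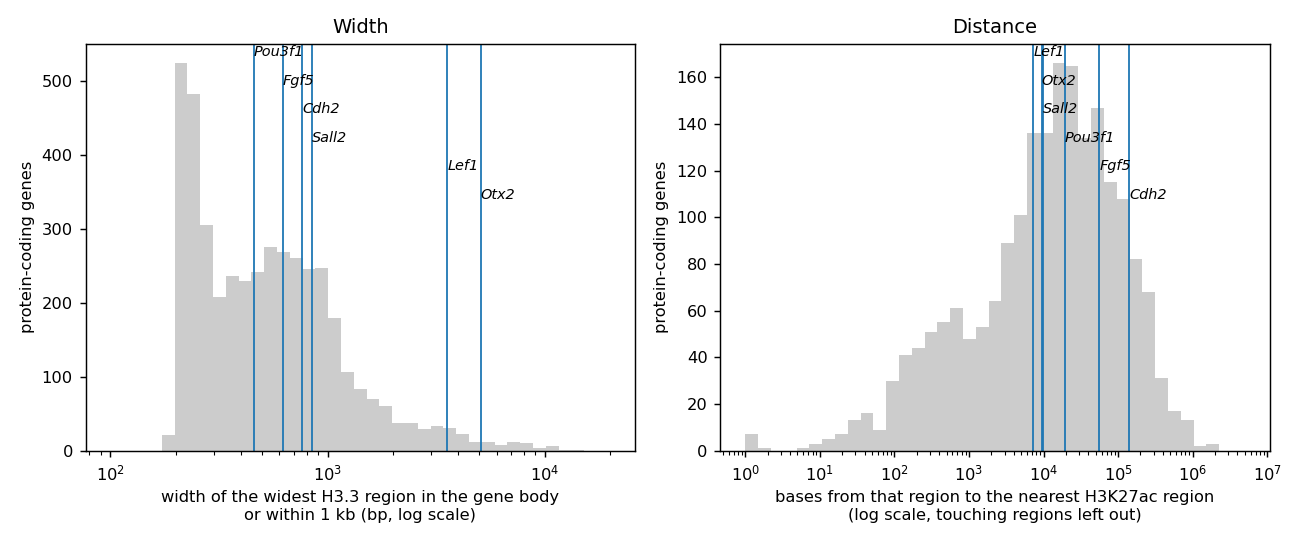
Histograms over protein-coding genes of the width of the widest H3.3 region in the gene body or within 1 kb (left, bp, log scale, 4300 genes) and of its distance to the nearest H3K27ac region (right, bases, log scale, the 2022 genes whose region does not touch one). Blue lines mark the 6 genes, with Lef1 at 3559 bp and Otx2 at 5078 bp far to the right on the left panel, and Cdh2 the most distant on the right panel.

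Of the 15 H3.3 regions in the windows 3 touched H3K27ac (20%), 1 each near Otx2, Lef1 and Sall2, against 47.5% of all 5430 H3.3 regions on assembled chromosomes. None of the 3 was the region at the gene itself. Pooled over the windows, most H3K27ac regions lay nearest to other genes, but the genes differed. The nearest protein-coding gene was another gene for 37 of the 48 H3K27ac regions (77.1%) and for 4 of the 15 H3.3 regions (26.7%). For H3K27ac this held for 19 of 20 regions at Sall2, 12 of 12 at Pou3f1, 5 of 7 at Lef1 and 1 of 1 at Fgf5. Otx2 and Cdh2 were themselves nearest to all 5 and all 3 of their H3K27ac regions. No share over all gene windows is given, so 77.1% cannot be read as particular to these genes. The edge of the window at 100 kb fell between an H3K27ac region of 441 bp at 98.2 kb from Cdh2 and one of 378 bp at 100.2 kb from Pou3f1. For H3.3 the last region inside was at 84.5 kb from Fgf5 and the next outside at 141.5 kb from Pou3f1.

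Windows differ in length with the gene, so covered length was also taken as a percent of the window. For H3.3 it was 3.17% at Otx2, 1.71% at Fgf5, 1.66% at Lef1, 0.729% at Sall2, 0.664% at Pou3f1 and 0.182% at Cdh2. The median of the 6 was 1.20%, against 0.083% over all protein-coding genes, whose 90th percentile was 1.08%. In the Fgf5 window most of this length belonged to the regions at Prdm8. For H3K27ac it was 12.95% at Sall2, 5.45% at Pou3f1, 2.15% at Lef1, 1.88% at Otx2, 0.530% at Cdh2 and 0.215% at Fgf5. The median was 2.01%, against 3.40% over all protein-coding genes. Sall2 and Pou3f1 were above that value and the other 4 genes below it. At least 1 H3.3 region lay in the window of all 6 (51.9% of all genes), and at least 1 H3K27ac region likewise (80.5%).

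**Figure D4:**
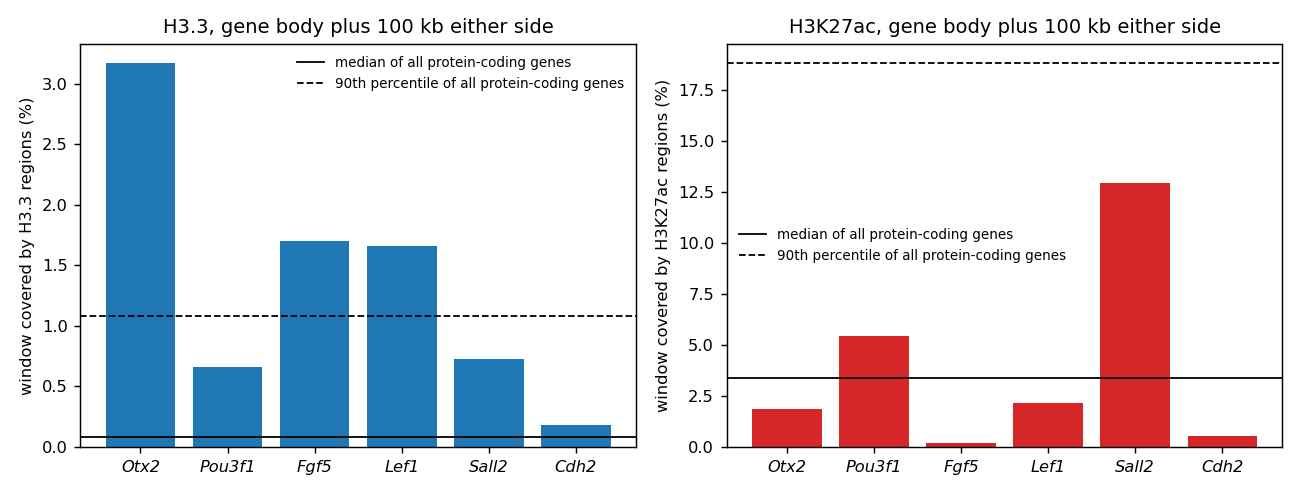
Percent of the window (gene body plus 100 kb either side) covered by H3.3 regions (left) and H3K27ac regions (right) at each of the 6 genes, with the median (solid line) and 90th percentile (dashed line) of all 21887 protein-coding genes. All 6 lie above the median for H3.3, and Sall2 and Pou3f1 lie above the median for H3K27ac.

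The 6 genes were set beside 20 other genes of the formative or primed epiblast. Of these 11 had H3.3 at a gene end (55%) and 12 had H3K27ac (60%). H3.3 alone was present at 4 of the 20 (20%), both marks at 7, H3K27ac alone at 5 and neither at 4. Over all protein-coding genes the shares were 5.31% for H3.3 alone, 10.7% for both, 28.2% for H3K27ac alone and 55.8% for neither. The widest H3.3 regions of the list were at the zinc finger gene Zic2 (6252 bp), Fgf8 (2203 bp), the Nodal co-receptor gene Tdgf1 (1513 bp) and Etv4 (1029 bp). H3K27ac was widest at Tdgf1 (10315 bp), Nodal (6597 bp), Etv4 (6260 bp) and Utf1 (4839 bp). Zic2 and Fgf8 had H3.3 alone, as had 5 of the 6, while Tdgf1, Nodal, Etv4 and Utf1 had both. Dnmt3a, Foxd3 and Grhl2 had neither mark at an end, and Etv5 and Dnmt3b had H3K27ac alone. Dnmt3a had 12 H3K27ac regions in its body and Grhl2 had 16, where Otx2, Pou3f1, Fgf5, Lef1 and Sall2 had 0. Foxd3, Zic2, Sox3, Sox4 and Fgf8 of the 20 also had 0. These counts were not corrected for gene length.

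Of 16 naive genes, 12 had H3K27ac at a gene end (75%, against 38.8% of all protein-coding genes) and 4 had H3.3 (25%, against 16%). Of the 12, 9 were without H3.3, and Prdm14 alone of the 16 had H3.3 and no H3K27ac. The widest H3K27ac regions at an end were at Klf5 (10499 bp), Fgf4 (8043 bp), Esrrb (7502 bp) and Klf2 (6462 bp). The median H3K27ac share of the window was 13.2% over the 16, 10.7% over the 20 other formative or primed genes and 2.01% over the 6. No H3K27ac was found at an end of Dppa3, Nr0b1, Nr5a2 or Prdm14. These differences between lists were not tested.

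**Figure D5:**
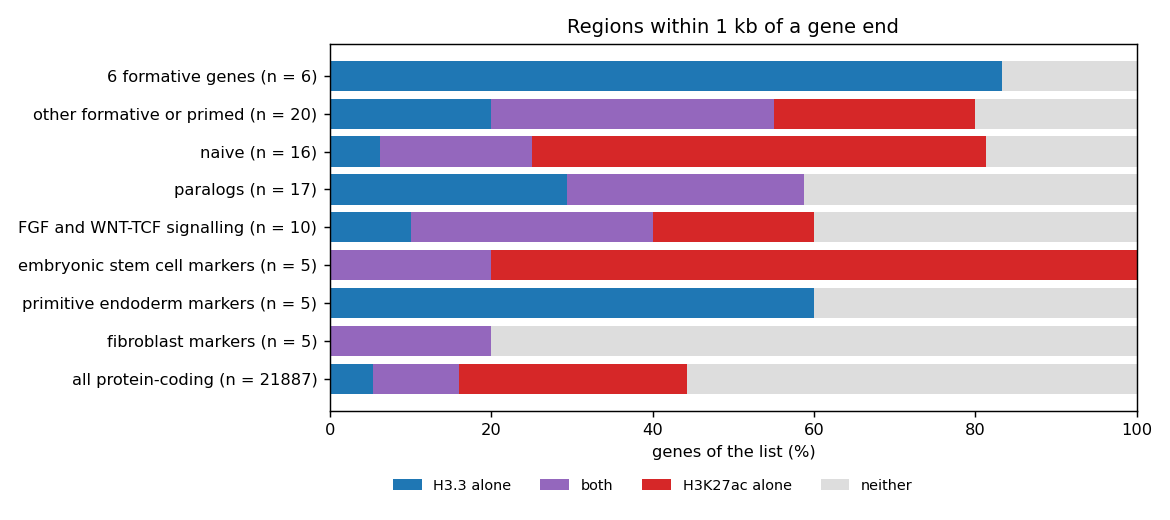
Percent of the genes of each list with an H3.3 region alone (blue), both marks (purple), an H3K27ac region alone (red) or neither (grey) within 1 kb of a gene end. The 6 formative genes show 83.3% blue and no red or purple, and all protein-coding genes show 5.31% blue.

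Close relatives of the 6 genes gave a mixed picture. Otx1, a forebrain relative of Otx2, had H3.3 of 11333 bp at a gene end, no H3K27ac there and 0 H3K27ac regions in its window, and Crx, the photoreceptor member, had neither mark at an end. Pou3f2 and Pou3f3, neural relatives of Pou3f1, had H3.3 of 5018 and 2809 bp and 0 H3K27ac regions in their windows, and the X-linked Pou3f4 had no region of either set. The H3.3 region at Pou3f1, at 456 bp, was the narrowest of those 3 genes. Among FGF genes, Fgf8 had H3.3 alone (2203 bp), Fgf4, a naive-state ligand, had both (H3.3 over 877 bp, H3K27ac over 8043 bp), and the muscle gene Fgf6 had neither.

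The relatives of Lef1, Sall2 and Cdh2 each had more H3K27ac regions in the gene body than Lef1, Sall2 or Cdh2 itself, with no correction for gene length. Tcf7 had both marks at its ends (H3.3 over 262 bp, H3K27ac over 2024 bp) and 8 H3K27ac regions in its body. Tcf7l1, a repressor of WNT targets, and Tcf7l2 had neither mark at an end, with 7 and 2 H3K27ac regions in the body, where Lef1 had 0. Sall4, a stem cell factor, had both marks (363 bp and 3317 bp) and so had Sall1 (339 bp and 9937 bp), while Sall3 had H3.3 alone (926 bp), and their bodies held 6, 5 and 1 H3K27ac regions. Cdh1, which encodes E-cadherin of naive cells, had neither mark at an end but 8 H3K27ac regions and 2 H3.3 regions in its body. Cdh3 had both, and Cdh4 had neither with 11 H3K27ac regions in its body, against 2 in that of Cdh2. Over the 17 relatives, 5 had H3.3 alone (29.4%), 5 both (29.4%), 0 H3K27ac alone and 7 neither (41.2%). Over all protein-coding genes these shares were 5.31%, 10.7%, 28.2% and 55.8%.

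Among 10 other genes of FGF and WNT-TCF signalling, 4 had H3.3 (40%) and 5 had H3K27ac (50%) at a gene end. Over all protein-coding genes these shares were 16% and 38.8%. Fgfr3, a receptor gene, had H3.3 alone (509 bp). The feedback inhibitor genes Spry2 and Spry4 and the kinase gene Gsk3b had both, with H3K27ac of 2903, 3452 and 1721 bp. Ctnnb1, which encodes the beta-catenin that LEF1 binds, had H3K27ac alone (9979 bp), as had Fgfr1 (439 bp). Axin2, Nkd1, Fgfr2 and Fgfr4 had neither. The ends of Fgf5 and Lef1 thus had no H3K27ac region, nor had those of Fgfr2, Fgfr3, Fgfr4, Axin2 and Nkd1. Such regions lay at the ends of Fgfr1, Ctnnb1, Spry2, Spry4 and Gsk3b.

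For each of the 6 genes the protein-coding genes with the most similar pattern were taken. Likeness was the Euclidean distance over the log10 of 1 plus the covered bases in 4 spans, which were H3.3 and H3K27ac in the gene body plus 1 kb and in the body plus 100 kb, for genes at least 1 Mb away. The nearest to Otx2 were the neuronal factor gene Neurog2 (distance 0.108), Mecom (0.141) and Hand1 (0.153), each with H3.3 over at least 2950 bp at the gene and no H3K27ac there. The nearest to Lef1 was the cyclin gene Ccnd2 (0.038), with 3596 bp of H3.3 at the gene against 3559 bp at Lef1, and then Elfn1 (0.129) and Scarf2 (0.168). The WNT ligand gene Wnt7a (0.046) was nearest to Pou3f1, Nfatc1 (0.301) to Fgf5, Mmp9 (0.098) to Sall2 and Ints12 (0.110) to Cdh2. Fgf5 had the least close match of the 6. These genes share the measured lengths and nothing further was compared.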

How the data were processed

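The authors deposited 2 lists, the H3.3 and the H3K27ac consensus regions, as chromosome, start and end with no header, score or value per library. Bowtie2, SAMtools, deepTools, MACS2 and the build mm10 are named without versions or roles, per the submitters' processing notes. The way libraries were combined into a consensus, with the libraries that entered and any threshold, is not given in the sources used here. Per the labels' protocols, the nuclease fusion and the salt of the stop buffer differed between H3.3 and H3K27ac libraries, so the sizes of the 2 sets do not compare amounts of chromatin. The K122ac and no-antibody libraries were not analysed here, so no background signal could be set beside the regions.

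Starts were raised by 1 to give 1-based positions, and 16 H3.3 and 13 H3K27ac regions off the 21 assembled chromosomes were left out. Gene positions came from the RefSeq table of GRCm38.p6, whose primary chromosomes carry mm10 coordinates, and start sites and strands from the RefSeq promoter table of the same build, which held 4 of the 6 genes and 17492 protein-coding genes. The table of genes gives no exons, so regions were not placed in exons, introns or UTRs. Regions were clipped to the window for covered length. Intervals were computed with Python 3.11.15, NumPy 2.4.6 and pandas 2.3.3, and the interval functions were tested on simulated data. No test was run, and no adjustment for multiple testing applies.

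The members and gene lists were chosen with earlier results of these data known. All 6 genes are named. From the lists, up to 4 genes per mark with the widest region at a gene end and up to 4 without one are named, and all relatives of the 6. In addition the widest region of each window, its nearest protein-coding gene and the closest matches by likeness are named. Other genes over which regions of a window lay, and genes of the 10 signalling genes beyond that rule, were named after their values were seen. Alternatives covered region width, gene-end window, flank, overlap rule, joining of regions and assignment to the nearest gene.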

Additional observations from a re-analysis of the deposited data

How the results depend on the processing

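The count of genes with H3.3 at a gene end or in the body stayed within 1.5 times its value under every alternative tried, the number of H3.3 regions in the windows likewise (11 to 16 against 15). With a gene-end window of 2.5 kb, 1 of the 6 genes, Otx2, had H3K27ac at an end, against 0 at 1 kb. Over all protein-coding genes the shares were 44.2% at 2.5 kb and 38.8% at 1 kb. The 48 H3K27ac regions became 26 with only regions wider than the median of their set, 30 with 50 kb either side, 85 with 200 kb, and 11 when only regions nearest to the gene itself were kept. With the wider regions only, 0 H3.3 regions touched H3K27ac, against 3. The median percent of the window covered by H3.3 (1.20%) was 1.13% with wider regions, 1.02% with 50 kb and 0.718% with 200 kb, and that for H3K27ac (2.01%) was 1.65%, 2.88% and 1.19%. Fewer regions or a different span enter by construction in each of these. An alternative chosen after seeing the data, within 1 kb of a RefSeq start site, gave H3.3 at 4 and H3K27ac at 0 of the 4 genes with such sites. No share over all genes is given for that alternative. No paired analysis was possible because the lists hold no value per library, and for the same reason no replicate could be left out.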
